A study of Mus musculus with 12 samples.

Results

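The genes described here are 171 long noncoding RNAs (lncRNAs), most of which have a gene name of their own. They are the rows with the biotype lincRNA (between genes) or antisense, in all 3 comparison tables of the study, that passed a filter on symbols. The filter took out symbols that matched patterns for names of gene models or sequence clones. Of the 20884 rows present in all 3 tables, 1820 had one of these biotypes, and 171 of those, 49 lincRNAs and 122 antisense RNAs, were kept and are called named. Names and biotypes chose them, together with presence in all 3 tables, which depends on reads. Each table lists the rows with reads in at least 1 of its groups, and all share the controls, so a row without control reads was kept only if all 3 MPLA groups had reads. Another 5 rows that the patterns for model names let through were left out because their symbols are contig or clone names. Symbols in the form of sequence accessions, such as AA543186, AU020206, AW112010 and C78197, also passed the patterns and were kept.

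Long noncoding RNAs are transcripts longer than most small RNAs that are not known to be translated. Some build nuclear bodies, some silence genes on the chromosome they are made from, and some serve as hosts from whose introns or exons small nucleolar RNAs or microRNAs are cut. In macrophages a few, such as lincRNA-Cox2, are induced by Toll-like receptor ligands and are known to alter the expression of immune genes. An antisense RNA is made from the strand opposite to another gene, and many members carry that gene's symbol followed by the letters os, for opposite strand.

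The study profiled 12 RNA-seq libraries of wild-type mouse bone marrow-derived macrophages, which are macrophages grown in culture from marrow cells with macrophage colony-stimulating factor (M-CSF, 10 ng/mL). There were 3 libraries of cells exposed to monophosphoryl lipid A (MPLA) for 4 h, 3 of cells exposed for 24 h, 3 of cells harvested 3 d after priming had ended and 3 of control cells without MPLA. MPLA is a detoxified lipid A that acts through Toll-like receptor 4, the receptor for bacterial lipopolysaccharide. All cells came from male C57BL/6 mice 8 to 16 weeks old, were cultured for 7 days before treatment and stayed in M-CSF throughout. The MPLA dose, the length of priming of the 3 d group and the time at which controls were harvested are not given in the sources used here. The labels also leave unsaid whether replicate libraries stem from different mice or cultures, so the p-values reflect the spread among libraries, which may be technical.

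The authors' deposited tables hold 1 comparison each, MPLA for 4 h, MPLA for 24 h, and 3 d after MPLA, and each was set against the same 3 control libraries. They give fold changes and p-values per gene, and no value per library, no count and no mean level, so the depth behind each value is unknown. Values for the 3 times stand side by side below, and the differences between times were not tested. A change is given as the log2 fold change of MPLA over control from the authors' DESeq2 columns, with a standard error (SE) recovered from that value and its p-value. A member was called higher or lower when its DESeq2 adjusted p in the authors' deposited table was under 0.05. Because these are bulk samples, less of an RNA per cell and fewer cells that make it cannot be told apart.

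All 8 macrophage markers were tested in each of the authors' deposited tables, among them Adgre1, Csf1r, Cd68 and Itgam, while none of the 3 erythroid markers was listed in any. The macrophage markers moved in both directions, with 6 called higher and 1 lower at 4 h, 4 and 4 at 24 h, and 5 and 3 at 3 d. Of 4 fibroblast markers, 2 were called higher at 4 h, Dcn and Pdgfra, both listed at 0 in controls, and 1 at 24 h and 3 d. Of 4 dendritic cell markers, 2 were called higher at 4 h, with Xcr1 at a log2 fold change of 3.93 and Zbtb46 at 1.19 in the authors' deposited table. At 24 h Xcr1 was higher (3.08) and Zbtb46 lower (-1.50) in the authors' deposited table, and neither was called at 3 d. Of 3 mast cell and basophil markers, 2 were lower at 24 h, with Kit at -4.30 and Cpa3 listed at 0 after MPLA in the authors' deposited table. Kit was also lower at 4 h (-1.42) and 3 d (-0.77) in the authors' deposited tables. Of the other cell types, B cell and T cell markers gave no call, 1 neutrophil marker was higher at 24 h and 3 d, 1 NK cell marker was lower at 24 h, and 1 megakaryocyte marker was higher at 4 h and 1 lower at 24 h and 3 d in the authors' deposited tables. The part of these cell types in the results below was not tested.

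After 4 h of MPLA more named lncRNAs were called lower than higher, and the highest ones were up to 214-fold higher in the authors' deposited table. Of the 129 members tested at 4 h in the authors' deposited table, 13 were higher (10.1%) and 37 lower (28.7%), against 31.8% of all 17523 tested rows higher and 31.0% lower. After 24 h, 19 of 122 tested members were higher (15.6%) and 22 lower (18.0%) in the authors' deposited table, against 32.4% of all tested rows higher and 32.2% lower. At 3 d, 15 of 113 were higher (13.3%) and 14 lower (12.4%) in the authors' deposited table, against 29.5% and 25.8% of all tested rows. The share called lower at 4 h was thus close to that of all rows, and every other share was below it. Members had to be in all 3 tables, whereas the shares of all rows include rows found in fewer tables, some without control reads. How far this rule shifts the split was not tested. Protein-coding rows present in all 3 tables were 36.7% higher and 36.5% lower at 4 h in the authors' deposited table. The median log2 fold change of tested members with reads in both groups was -0.69 at 4 h (118 members), -0.30 at 24 h (119) and -0.12 at 3 d (113), against -0.02, -0.05 and -0.02 over all such rows of the authors' deposited tables.

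**Figure D1:**
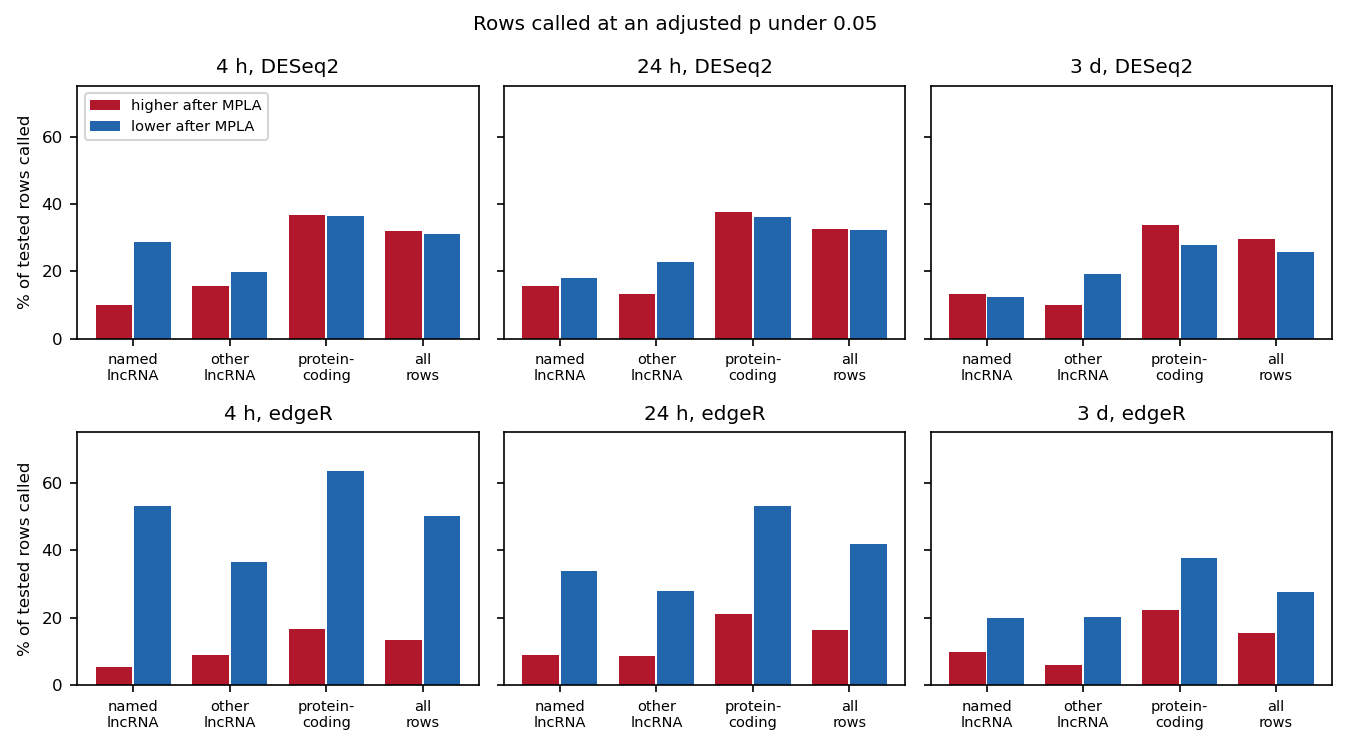
Share of tested rows called higher (red) or lower (blue) after MPLA at an adjusted p under 0.05, in percent, for the 171 named lncRNAs, the 1649 other lincRNA and antisense rows, 14770 protein-coding rows and all rows of each deposited table; columns are the 3 times and rows the DESeq2 and edgeR columns. At 4 h with DESeq2, 10.1% of named lncRNAs were higher and 28.7% lower, against 36.7% and 36.5% of protein-coding rows.

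The other lncRNAs are those whose symbols matched the patterns or were left out as contig or clone names. They had a less uneven split at 4 h, with 15.5% of those tested higher and 19.9% lower in the authors' deposited table. At 3 d their order was turned round compared with the named ones, 10.1% higher and 19.2% lower in the authors' deposited table. The named ones had 15 higher and 14 lower there, so their order rests on a narrow margin. Neither difference between the 2 sets was tested. With edgeR the order at 3 d was the same in both sets. The named ones were 9.94% higher and 19.9% lower, and the others 5.88% and 20.3%. The authors' edgeR columns, most of whose values lie below the DESeq2 values, placed more members on the lower side. The gap was uneven within a table. At 3 d the DESeq2 and edgeR values were 2.09 and 1.97 for AW112010, but -0.71 and -1.35 for AV099323 and -1.05 and -1.95 for Dnah14. Some members stood higher with edgeR, such as Rapgef3os1 at 3 d, with 1.45 from DESeq2 and 3.78 from edgeR in the authors' deposited table. With edgeR 9 members were higher (5.26%) and 91 lower (53.2%) at 4 h in the authors' deposited table, against 13.5% and 50.1% of all rows. The edgeR counts were 15 higher and 58 lower at 24 h in the authors' deposited table, against 16.2% and 41.8% of all rows, and 17 higher and 34 lower at 3 d, against 15.5% and 27.7% of all rows. With edgeR the median of all such rows was -0.95 at 4 h, -0.46 at 24 h and -0.15 at 3 d in the authors' deposited tables. Taken from the median of all rows, the members' median was -0.66 with DESeq2 and -0.68 with edgeR at 4 h, -0.25 and -0.29 at 24 h, and -0.10 and -0.15 at 3 d in the authors' deposited tables.

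Not every member was tested. In total 130 members had an adjusted p in at least 1 of the authors' deposited tables, 112 had one in all 3 and 41 had none, among them Xist, H19, Fendrr and Nron. After MPLA 43 members were listed at 0 at 4 h, 34 at 24 h and 18 at 3 d in the authors' deposited tables, and 1 member, Carlr, was listed at 0 in controls. That imbalance follows from the rule and is no result. Over all rows of the authors' deposited tables, 3077 were listed at 0 after MPLA and 1414 in controls at 4 h, 2731 and 1444 at 24 h, and 1195 and 2769 at 3 d. The members tested were 75.4% of the 171 at 4 h, 71.3% at 24 h and 66.1% at 3 d, against 91.4%, 88.8% and 85.5% of protein-coding rows of the authors' deposited tables.

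The highest members at 4 h included RNAs at the loci of Ptgs2 and Il1b. Ptgs2os2 (ENSMUSG00000097754, mm10 chromosome 1, 150159043 to 150164948, minus strand, no exon overlap with another gene) is lincRNA-Cox2, an RNA that is known to modulate immune genes in mouse macrophages. Its log2 fold change was 7.74 (SE 0.69) at 4 h, a 214-fold increase, 7.26 (SE 0.63) at 24 h and 2.32 (SE 0.46) at 3 d, with DESeq2 adjusted p-values of 3.23e-28, 7.00e-30 and 1.29e-06 in the authors' deposited tables. Its neighbour Ptgs2, the inducible cyclooxygenase, had log2 fold changes of 12.15, 9.48 and 3.51 at the same times in the authors' deposited tables. Both genes were thus higher at all 3 times, and the lncRNA less so at each in the DESeq2 columns, a difference that was not tested. With edgeR Ptgs2os2 stood at 3.70 at 3 d in the authors' deposited table, so the order at 3 d may depend on the columns.

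AW112010 (ENSMUSG00000075010, chromosome 19, 11047612 to 11055808, minus strand) is an RNA induced in mouse macrophages by lipopolysaccharide, from which a protein has been reported to be translated. It was 107-fold higher at 4 h, 64.8-fold at 24 h and 4.26-fold at 3 d in the authors' deposited tables, with a DESeq2 adjusted p of 1.13e-195 at 3 d and values too small to be stored at 4 h and 24 h. The nearest protein-coding gene, Ms4a8a, 11663 bases away, was not called at 4 h, with a log2 fold change of 1.55 (SE 0.81, adjusted p = 0.0832) in the authors' deposited table.

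Il1bos (ENSMUSG00000074805, chromosome 2, 129369897 to 129375748, plus strand) lies opposite Il1b, the gene of interleukin 1 beta, and 0.839% of its exonic bases overlap an exon of that gene. It was 87.7-fold higher at 4 h (log2 fold change 6.45, SE 0.61, adjusted p = 8.15e-26) and 14.4-fold at 24 h (3.85, SE 0.67, adjusted p = 2.26e-08), and was not tested at 3 d, where it stood at -0.26 in the authors' deposited table. Il1b stood at 8.11, 7.07 and 1.50 at the 3 times in the authors' deposited tables.

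Peak1os (ENSMUSG00000097111, chromosome 9, 56257890 to 56267780, plus strand), antisense to the pseudopodium kinase gene Peak1, was higher at 24 h than any other member in fold terms except Ptgs2os2. It was 8.24-fold higher at 4 h (log2 fold change 3.04, SE 0.70), 107-fold higher at 24 h (6.74, SE 0.46, adjusted p = 6.28e-47) and at 0.58 (SE 0.48, adjusted p = 0.315) at 3 d in the authors' deposited tables. Peak1 stood at -1.63 at 4 h, where it was called lower while Peak1os was higher, at 0.45 at 24 h, where it was called higher, and at -0.01 at 3 d in the authors' deposited tables.

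Carlr (ENSMUSG00000097638, chromosome 2, 18799245 to 18801818, minus strand) is an RNA reported to respond to NF-kB signalling in mouse macrophages. It was listed at 0 in controls and called higher at 4 h, with a DESeq2 adjusted p of 0.000296 in the authors' deposited table, so no fold is given. At 24 h and 3 d it was not tested with DESeq2, while edgeR called it higher at 24 h with an adjusted p of 0.0132 in the authors' deposited table.

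The promoters of these induced RNAs are shown because the members share a direction and a time, and because Toll-like receptor 4 is known to act through NF-kB, AP-1 and the interferon-activated factors that bind interferon-stimulated response elements (ISRE) and gamma-activated sites (GAS). Each entry of RefSeq (GRCm38.p6) holds 300 bases, 250 before the annotated start and 50 after it, and is printed 5′ to 3′ along the gene's strand. Capitals mark matches to the motifs ISRE (GAAANNGAA) and GAS (TTCNNNGAA), read on both strands.
Ptgs2os2, chr1:150164899-150165198, minus strand: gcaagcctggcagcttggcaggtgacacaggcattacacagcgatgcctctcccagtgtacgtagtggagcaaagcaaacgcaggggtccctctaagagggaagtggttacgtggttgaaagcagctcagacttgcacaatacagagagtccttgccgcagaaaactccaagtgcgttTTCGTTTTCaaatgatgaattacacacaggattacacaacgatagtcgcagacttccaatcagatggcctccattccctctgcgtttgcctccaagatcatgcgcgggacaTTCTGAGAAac
Il1bos, chr2:129369652-129369951, plus strand: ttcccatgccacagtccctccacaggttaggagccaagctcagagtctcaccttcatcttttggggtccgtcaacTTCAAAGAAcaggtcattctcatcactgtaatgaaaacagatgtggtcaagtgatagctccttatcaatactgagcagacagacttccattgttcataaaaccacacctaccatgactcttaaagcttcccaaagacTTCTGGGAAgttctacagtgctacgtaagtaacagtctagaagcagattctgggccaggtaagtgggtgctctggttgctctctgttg
AW112010, chr19:11050517-11050816, minus strand: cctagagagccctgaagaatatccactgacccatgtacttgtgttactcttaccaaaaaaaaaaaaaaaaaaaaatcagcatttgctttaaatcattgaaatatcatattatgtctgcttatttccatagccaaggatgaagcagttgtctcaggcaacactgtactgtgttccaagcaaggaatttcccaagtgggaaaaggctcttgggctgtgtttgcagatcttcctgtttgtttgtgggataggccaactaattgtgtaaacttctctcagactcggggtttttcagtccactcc
Carlr, chr2:18801769-18802068, minus strand: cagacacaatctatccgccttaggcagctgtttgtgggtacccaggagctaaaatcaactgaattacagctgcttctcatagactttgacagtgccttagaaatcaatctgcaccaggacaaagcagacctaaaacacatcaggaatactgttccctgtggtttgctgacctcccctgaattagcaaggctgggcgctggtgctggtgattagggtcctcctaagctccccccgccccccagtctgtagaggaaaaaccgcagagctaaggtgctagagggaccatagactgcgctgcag
Peak1os, chr9:56241094-56241393, plus strand: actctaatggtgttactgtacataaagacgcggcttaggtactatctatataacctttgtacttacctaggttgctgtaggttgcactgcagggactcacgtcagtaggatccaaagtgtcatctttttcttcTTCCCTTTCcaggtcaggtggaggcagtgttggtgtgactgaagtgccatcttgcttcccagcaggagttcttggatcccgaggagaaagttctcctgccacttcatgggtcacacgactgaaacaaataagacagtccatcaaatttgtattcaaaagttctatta
For Ptgs2os2, Carlr and Il1bos the RefSeq start lies 0, 0 and 5 bases from the start in GENCODE M21, but for AW112010 it lies 5242 bases away and for Peak1os 16546 bases away, so these entries may not be the promoter used in these cells.

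Ptgs2os2 had an ISRE match at base 179 of its entry and a GAS match at base 290. Il1bos had GAS matches at bases 76 and 213, and Peak1os an ISRE match at base 134. AW112010 and Carlr had no match to the 6 motifs searched. These were ISRE, GAS, NF-kB (GGGNNTTCC), AP-1 (TGANTCA), CRE (TGACGTCA) and E-box (CACGTG), each on both strands and allowed to overlap. Sites with other letters or spacing were not counted, such as the stretch ggaatttccc in the AW112010 entry. An entry without a match may therefore still hold an NF-kB site. RefSeq entries were matched for 104 members, 129 entries in all. An ISRE match was found in 11.6% of the members' entries and in 8.56% of all 32851 entries, a GAS match in 8.53% and 8.30%, NF-kB in 5.43% and 5.82%, AP-1 in 6.20% and 7.81%, CRE in 0.775% and 1.79%, and an E-box in 12.4% and 7.15%. Among the 8 entries of members called higher at 4 h, 3 held ISRE, 3 held GAS and 1 held an E-box, and none held the other motifs. A match describes letters only, and the 8 entries are too few to set against the share of all promoters.

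The remaining members higher at 4 h were mostly antisense RNAs, as are most of the 171 members. In all, 8 of 93 tested antisense RNAs (8.60%) and 5 of 36 tested lincRNAs (13.9%) were higher at 4 h, against 31.8% of all tested rows. Gdap10 (chromosome 12, 32821872 to 32826904, plus strand) lies within Nampt, the gene of an enzyme of NAD synthesis, on the same strand. Its log2 fold changes were 3.43 (SE 0.15), 1.34 (SE 0.20) and 0.58 (SE 0.18) at 4 h, 24 h and 3 d, all called, and those of Nampt were 3.55, 1.90 and 0.71 in the authors' deposited tables. Reads from unspliced Nampt RNA cannot be told apart from Gdap10 here. Adap2os, opposite Adap2, a GTPase-activating protein gene, was at 2.54 (SE 0.08), 0.40 (SE 0.11) and -0.28 (SE 0.10), all called, in the authors' deposited tables. Adap2 stood at 2.39, 0.46 and 0.07 in the authors' deposited tables, called higher at 4 h and 24 h. For Adap2os the edgeR value at 24 h in the authors' deposited table was -0.01 and was not called.

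Zeb2os, opposite the gene of the transcriptional repressor Zeb2, was higher at 4 h (log2 fold change 1.43, SE 0.08, adjusted p = 1.29e-67), at 0.06 at 24 h (adjusted p = 0.563) and lower at 3 d (-0.52, SE 0.08, adjusted p = 5.81e-10) in the authors' deposited tables. Zeb2 stood at 1.21, 0.31 and 0.08, called higher each time with DESeq2 in the authors' deposited tables, whereas the edgeR values of Zeb2 were 0.28, -0.10 and -0.05. Dhx58os, opposite the gene of the RNA sensor Dhx58 (LGP2), was at 1.96 (SE 0.53, adjusted p = 0.000413) at 4 h, where Dhx58 stood at 3.73 in the authors' deposited table. At 24 h and 3 d Dhx58os was not called, while Dhx58 stood at 2.36 and 1.61 in the authors' deposited tables and was called higher at both. Anxa11os, opposite an annexin gene, was at 2.23 (SE 0.96, adjusted p = 0.0331) at 4 h, a call that edgeR did not make (1.49, adjusted p = 0.0856), and at 3.24 (SE 0.71, adjusted p = 1.26e-05) at 24 h in the authors' deposited tables. Anxa11 was not called at 4 h (0.10, adjusted p = 0.211) and was lower at 24 h (-0.60) in the authors' deposited tables.

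Brip1os, whose start lies 177 bases from that of the DNA helicase gene Brip1, was at 0.91 (SE 0.05) at 4 h and 0.59 (SE 0.05) at 24 h, both called, and its edgeR value at 4 h was -0.03 in the authors' deposited table. Rab10os, singled out after its values were seen, was called higher at all 3 times with DESeq2, with log2 fold changes of 0.51, 0.43 and 0.34, but at 4 h edgeR called it lower, at -0.42, in the authors' deposited tables.

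**Figure D2:**
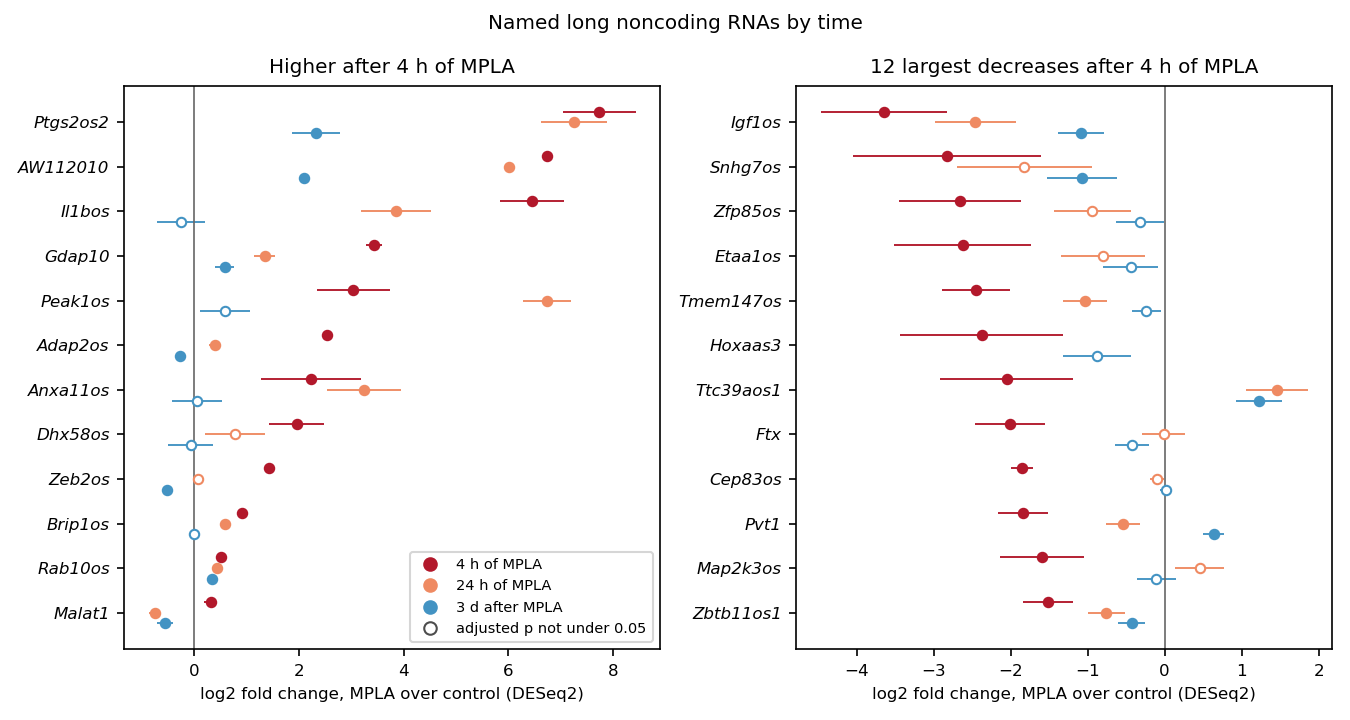
Log2 fold change of MPLA over control (DESeq2 columns, horizontal axis) for the 12 members called higher at 4 h with reads in both groups (left) and the 12 members with the largest called decreases at 4 h with reads in both groups (right), at 4 h, 24 h and 3 d; bars are 1 SE recovered from the deposited p-value and are missing where that p was stored as 0, open points were not called or not tested, and points listed at 0 in a group are left out. Ptgs2os2 and AW112010 lie above 6 at 4 h and 24 h and near 2 at 3 d, and Peak1os is higher at 24 h than at 4 h.

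Of the 37 members lower at 4 h in the authors' deposited table, 23 were antisense RNAs and 14 lincRNAs. These were 24.7% of the 93 antisense RNAs tested and 38.9% of the 36 lincRNAs tested, against 31.0% of all tested rows. Igf1os (ENSMUSG00000058934, chromosome 10, 87826377 to 87863381, minus strand), opposite the gene of insulin-like growth factor 1, was 12.5-fold lower at 4 h, 5.49-fold at 24 h and 2.13-fold at 3 d, with log2 fold changes of -3.64 (SE 0.82), -2.46 (SE 0.53) and -1.09 (SE 0.30) in the authors' deposited tables. Igf1 was lower too, at -0.58, -2.97 and -0.84 in the authors' deposited tables. At 4 h the antisense RNA thus had the larger decrease, and at 24 h the coding gene had a slightly larger one, although no exon of the pair overlaps.

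Other large decreases at 4 h were those of Snhg7os (-2.82, SE 1.22), Zfp85os (-2.66, SE 0.79), Etaa1os (-2.63, SE 0.89), Tmem147os (-2.45, SE 0.44), Ttc39aos1 (-2.05, SE 0.87) and Cep83os (-1.85, SE 0.14), all called in the authors' deposited table. Etaa1os, Tmem147os, Cep83os and Ttc39aos1 each start within 1000 bases of the start of the coding gene they are named for, which runs the other way. Of the 26 members with such a divergent coding start within 1000 bases, 23 were tested at 4 h, with 1 higher (4.35%) and 8 lower (34.8%) in the authors' deposited table, the second share being near the 31.0% of all tested rows. Cep83, a gene of the centriole, was called higher at 4 h (0.93) while Cep83os was lower in the authors' deposited table, although edgeR put Cep83 at -0.001. Etaa1, a replication stress gene, was lower with its partner (-1.79), and Tmem147 was not called (-0.17, adjusted p = 0.0733) in the authors' deposited table.

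Another 8 members were called lower at 4 h and listed at 0 after MPLA, so that no fold is given. They were Bach2os, Dnah14, Frs3os, Prkag2os2, Rapgef3os2, Runx2os2, Tomm6os and Tspan32os, with DESeq2 adjusted p-values between 0.000324 and 0.0448 in the authors' deposited table. Tomm6os had reads again at 24 h and 3 d, at -1.73 (SE 0.60) and -1.17 (SE 0.35), both called, while Tomm6, a subunit of the mitochondrial import channel, was called at no time in the authors' deposited tables. Bach2os and its partner Bach2, a transcriptional repressor known from lymphocytes, were both lower at 4 h and 24 h in the authors' deposited tables. Prkag2os2 and Runx2os2 were listed at 0 at 24 h as well and were called lower there, and Hoxaas3 was called lower and listed at 0 at 24 h in the authors' deposited table.

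Some members fell at 4 h and were higher later. Ttc39aos1 stood at -2.05 (adjusted p = 0.0295) at 4 h, 1.46 (SE 0.40, adjusted p = 0.000495) at 24 h and 1.23 (SE 0.30, adjusted p = 0.000115) at 3 d in the authors' deposited tables. Ttc39a, a gene of a tetratricopeptide repeat protein, followed with -1.15, 0.86 and 1.15, called each time in the authors' deposited tables. Inafm2, singled out after its values were seen and annotated as protein-coding in GENCODE M21, stood at -0.84, 0.52 and 0.37 in the authors' deposited tables. Pvt1 and Snhg12, described below with their groups, were lower at 4 h and higher at 3 d.

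At 24 h the largest increases after Ptgs2os2, Peak1os, AW112010, Il1bos and Anxa11os were those of Arhgap27os1 (2.30, SE 0.69), Appbp2os (1.63, SE 0.52), Airn, Ttc39aos1 and Arhgap27os2 (1.45, SE 0.65) in the authors' deposited table. Arhgap27, the gene whose locus these Arhgap27 antisense RNAs overlap, was lower at 4 h (-2.55) and higher at 24 h (1.88) and 3 d (0.99) in the authors' deposited tables. Of the exonic bases of Arhgap27os2, 75.9% lie opposite exons of that gene, and the sources used here do not say whether counting used the strand. The decreases at 24 h were largest for Igf1os, Abhd11os (-2.41, SE 1.09), Tnfsf13os (-2.02, SE 0.22), Bach2os (-1.78) and Tomm6os in the authors' deposited table. Tnfsf13os and Tnfsf13, the gene of the B cell factor APRIL, were both lower at 4 h (-1.39 and -0.76) and 24 h (-2.02 and -2.56) in the authors' deposited tables.

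Dnmt3aos, opposite the gene of a de novo DNA methyltransferase, and Fam120aos were lower in each of the authors' deposited tables. Dnmt3aos stood at -1.05 (SE 0.26), -1.21 (SE 0.24) and -0.63 (SE 0.16) in the authors' deposited tables, and Dnmt3a at -0.93, -0.58 and -0.06, the last not called. Fam120aos stood at -0.66 (SE 0.29), -0.88 (SE 0.26) and -0.80 (SE 0.19) in the authors' deposited tables, where Fam120a was lower at 4 h (-0.32) and higher at 3 d (0.09, and -0.04 with edgeR). The lincRNA AU020206, whose function is not known, stood at -1.35 (SE 0.14), -0.87 (SE 0.11) and -0.37 (SE 0.08), all called, in the authors' deposited tables.

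At 3 d the largest DESeq2 changes were smaller than at 4 h and 24 h. Several DESeq2 values at 3 d were smaller in size than the edgeR values, such as that of Snhg7os (-1.07 and -1.77) in the authors' deposited table. How much of the smaller size belongs to the DESeq2 columns was not tested. Besides Ptgs2os2 and AW112010, the largest DESeq2 increases were those of Rapgef3os1 (1.45, SE 0.48, adjusted p = 0.00602), Ttc39aos1 and Zmiz1os1 (1.22, SE 0.22, adjusted p = 7.38e-08) in the authors' deposited table. With edgeR the values at 3 d were 3.78 for Rapgef3os1, 3.70 for Ptgs2os2 and 1.97 for AW112010 in the authors' deposited table, so the order depends on the columns used. Zmiz1, a transcriptional coregulator gene, stood at -1.14 at 4 h, -0.18 at 24 h and 0.38 at 3 d, called each time, while Zmiz1os1 was not called at 4 h (-0.17) or 24 h (-0.05) in the authors' deposited tables. Rapgef3, which encodes the cyclic AMP sensor Epac1, was higher at 3 d (1.27) with Rapgef3os1, and 48.9% of the exonic bases of that RNA lie opposite its exons, in the authors' deposited table and GENCODE M21. Junos, which has 5.64% of its exonic bases opposite exons of the AP-1 gene Jun, was higher at 3 d (0.66, SE 0.27, adjusted p = 0.0270), as was Jun (1.08), in the authors' deposited table. Lppos was higher at 3 d (0.53, SE 0.21, adjusted p = 0.0263), where Lpp was not called (-0.01, adjusted p = 0.903) in the authors' deposited table. The largest decreases at 3 d were those of Tomm6os, Igf1os, Snhg7os (-1.07, SE 0.46), Fbxl12os (-1.06, SE 0.32) and Dnah14 (-1.05, SE 0.47), followed by Rab26os (-0.88, SE 0.34) in the authors' deposited table. Dnah14 has the name of a dynein heavy chain gene and its ID was not found in GENCODE M21.

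For 117 members the gene they are named for was listed as well. At 4 h both of a pair were called for 26 pairs in the authors' deposited table. Of these, 7 were both higher, 15 both lower, 3 had the lncRNA lower and its partner higher, and 1, Peak1os, had it higher and its partner lower. At 24 h both were called for 22 pairs, of which 10 were both higher, 7 both lower, 2 had the lncRNA lower and 3 had it higher against the partner in the authors' deposited table. At 3 d the counts were 6, 3, 3 and 1 of 13 pairs in the authors' deposited table. Where both of a pair were called, most pairs moved the same way at each time. Both of a pair were tested for 91 pairs at 4 h, 85 at 24 h and 77 at 3 d. No share for unrelated gene pairs was computed, so these counts are a description only.

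Across pairs with reads in both groups, the Spearman correlation between the log2 fold changes of lncRNA and partner was 0.51 at 4 h (81 pairs), 0.44 at 24 h (83) and 0.37 at 3 d (77), as a description over genes, which are not independent replicates and share the same libraries. For pairs with overlapping exons it was 0.62, 0.44 and 0.41 (56, 62 and 57 pairs), and for pairs without it was 0.34, 0.51 and 0.36 (25, 21 and 20 pairs). Of the 170 members with an ID in GENCODE M21, 100 have exons opposite the exons of another gene. Of these, 83 were tested at 4 h, with 9 higher (10.8%) and 20 lower (24.1%) in the authors' deposited table. Of the 70 without such overlap 45 were tested, with 4 higher (8.89%) and 16 lower (35.6%). At 24 h the counts were 12 (14.6%) and 13 (15.9%) of 82 against 7 (17.9%) and 9 (23.1%) of 39. At 3 d they were 6 (8.00%) and 8 (10.7%) of 75 against 9 (24.3%) and 5 (13.5%) of 37 in the authors' deposited tables. Of all tested rows 31.8% were higher and 31.0% lower at 4 h, 32.4% and 32.2% at 24 h, and 29.5% and 25.8% at 3 d. Libraries were made with a stranded kit, per the labels, but the sources used here do not give the strand setting of the counting. For pairs with overlapping exons, reads of a gene and of its antisense partner can therefore not be told apart with certainty. Pairs that overlap only outside the partner's exons, such as Igf1os and Igf1, may share this limit through reads of unspliced partner RNA. This was not tested.

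**Figure D3:**
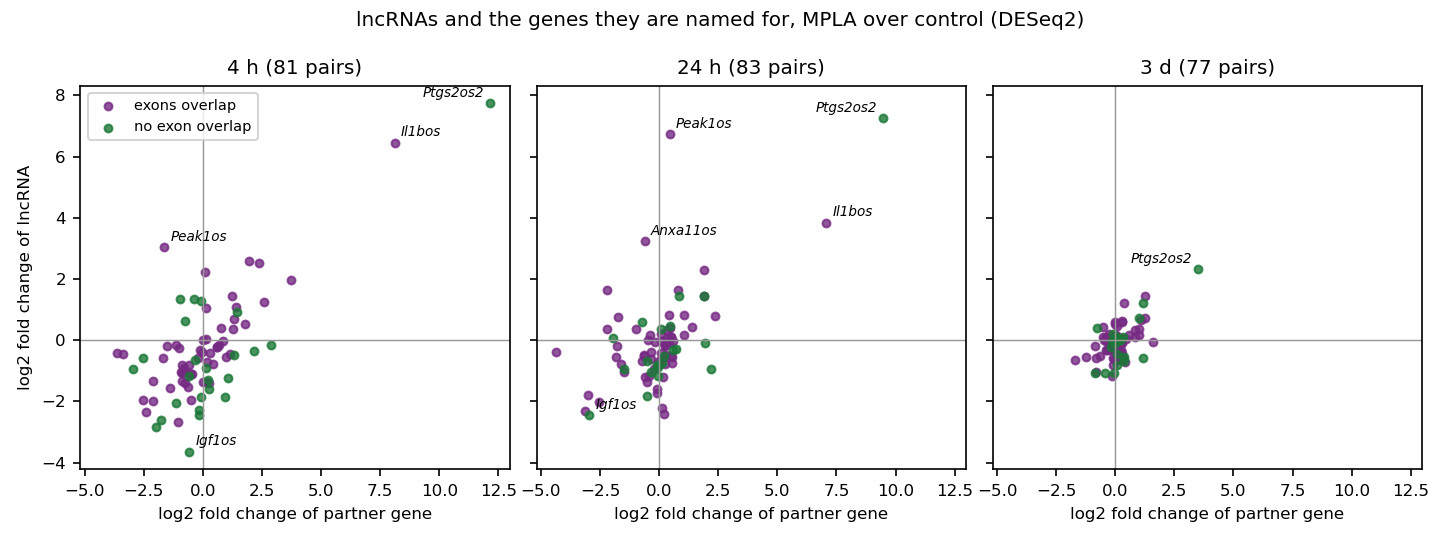
Log2 fold change of each lncRNA (vertical axis) against that of the gene it is named for (horizontal axis), MPLA over control from the DESeq2 columns, for pairs tested with reads in both groups at 4 h (81 pairs), 24 h (83) and 3 d (77); purple points have overlapping exons and green points have none. Ptgs2os2 and Il1bos lie at the upper right with their partners, Peak1os lies above a partner near 0 or below it, and the points lie closer to 0 at 3 d.

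The members that are known parts of nuclear bodies were Malat1 and Neat1. Malat1, an abundant RNA of nuclear speckles, was called higher at 4 h with DESeq2 (log2 fold change 0.32, SE 0.12, adjusted p = 0.0191) and lower with edgeR (-0.62, adjusted p = 1.81e-15) in the authors' deposited table, so its direction at 4 h depends on the scaling. It was lower with both at 24 h (-0.76, SE 0.11, and -1.18 with edgeR) and 3 d (-0.56, SE 0.15, and -0.70 with edgeR) in the authors' deposited tables. Neat1, the RNA on which paraspeckles are built, was lower with both at 4 h (-1.09, SE 0.04, adjusted p = 4.67e-169) and 24 h (-0.83, SE 0.08), and stood at 0.01 (SE 0.05, adjusted p = 0.927) at 3 d in the authors' deposited tables. Libraries held polyadenylated RNA, per the labels, and the mature end of Malat1 and of the long form of Neat1 is known to carry no poly(A) tail, so both are measured only in part.

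**Figure D4:**
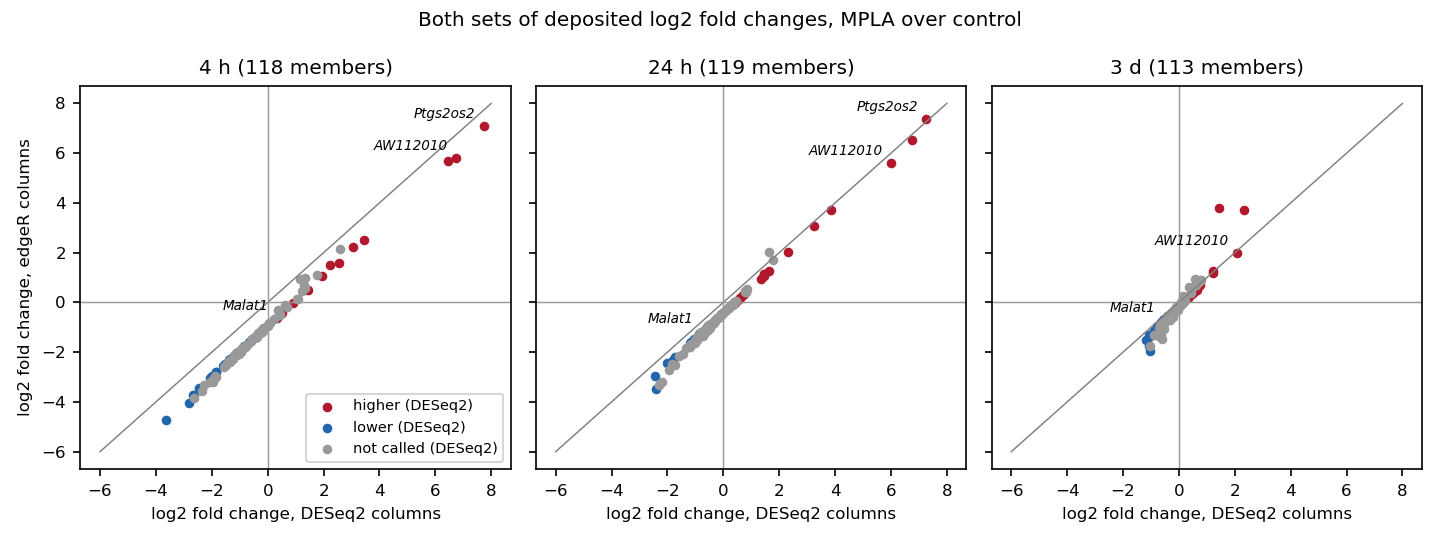
Log2 fold change of each tested member with reads in both groups in the edgeR columns (vertical axis) against the DESeq2 columns (horizontal axis), MPLA over control, at 4 h (118 members), 24 h (119) and 3 d (113); colours give the DESeq2 call and the diagonal marks equal values. Most points run below the diagonal at 4 h, where Malat1 stood at 0.32 with DESeq2 and -0.62 with edgeR, and most lie nearer to it at 24 h and 3 d, with some above it at 3 d.

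Of the snoRNA host genes, whose introns carry small nucleolar RNAs that guide the chemical modification of ribosomal RNA, 7 were members and 6 were tested. The counts of this and the following short lists stand against 31.8% of all tested rows higher and 31.0% lower at 4 h, 32.4% and 32.2% at 24 h, and 29.5% and 25.8% at 3 d in the authors' deposited tables. For edgeR the shares of all rows were 13.5% and 50.1%, 16.2% and 41.8%, and 15.5% and 27.7% in the authors' deposited tables. At 4 h none was higher and 4 were lower in the authors' deposited table, with 0 and 4 at an unadjusted DESeq2 p under 0.05 and 0 and 5 with edgeR. The median of the tested snoRNA hosts was -1.23 at 4 h, -0.56 at 24 h and -0.01 at 3 d in the authors' deposited tables, against -0.02, -0.05 and -0.02 over all rows. The 4 were Snhg12 (-1.27, SE 0.25), Snhg20 (-1.39, SE 0.23), Epb4.1l4aos (-1.20, SE 0.30) and Snhg7os, in the authors' deposited table. At 24 h Epb4.1l4aos (-1.17, SE 0.25) and Snhg20 (-0.44, SE 0.17) were lower and Snhg6 was higher (0.71, SE 0.14) in the authors' deposited table. At 3 d Snhg12 was higher (0.45, SE 0.13, adjusted p = 0.00113) and Snhg7os lower in the authors' deposited table. Snhg9 was called at no time. Snhg7os is named as the antisense RNA of a host gene and may carry no snoRNA itself.

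Of the RNAs of X inactivation and imprinting, 6 were members and 4 were tested. At 4 h 0 were higher and 2 lower, at 24 h 1 and 0, and at 3 d 1 and 1 in the authors' deposited tables. An unadjusted DESeq2 p under 0.05 gave 0 and 3, 1 and 0, and 1 and 1, and edgeR gave 0 and 4, 1 and 1, and 1 and 2, in the authors' deposited tables. Their median was -1.27, -0.06 and -0.20 at the 3 times in the authors' deposited tables. Ftx, which lies in the X inactivation centre, was lower at 4 h (-2.01, SE 0.45, adjusted p = 1.98e-05) and not called at 24 h (-0.01) or 3 d (-0.43) in the authors' deposited tables. Jpx, its neighbour, was called at no time with DESeq2 (-1.19, adjusted p = 0.0660, at 4 h), although edgeR called it lower at 4 h in the authors' deposited table. Kcnq1ot1 (chromosome 7, 143203458 to 143296549, minus strand), which silences imprinted genes in cis, was lower at 4 h (-1.34, SE 0.49) and 3 d (-0.63, SE 0.28, adjusted p = 0.0455) in the authors' deposited tables. Kcnq1, a potassium channel gene, was lower at 24 h (-4.35) and 3 d (-1.69) in the authors' deposited tables. Airn (chromosome 17, 12741311 to 12860136, plus strand), the antisense RNA whose transcription silences the paternal Igf2r allele in mice, was not called at 4 h with DESeq2 (-0.28, adjusted p = 0.585) while edgeR called it lower (-1.19) in the authors' deposited table. It was higher at 24 h (1.46, SE 0.26, adjusted p = 4.30e-08) and 3 d (0.76, SE 0.22, adjusted p = 0.00148) in the authors' deposited tables. Igf2r was higher at 4 h (0.46), lower at 24 h (-0.17) and higher at 3 d (0.46) in the authors' deposited tables, and with edgeR it was at -0.47 at 4 h.

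The microRNA host genes gave no call with DESeq2, neither higher nor lower, for 4 tested members at 4 h, 3 at 24 h and 2 at 3 d in the authors' deposited tables, and none had an unadjusted p under 0.05. With edgeR 2, 1 and 2 of them were lower in the authors' deposited tables and 0 higher. Mir142hg, host of the blood-cell microRNA miR-142, stood at -0.26 (SE 0.26), -0.23 (SE 0.23) and -0.19 (SE 0.18) in the authors' deposited tables. Mir17hg, host of a cluster known from lymphoma, stood at 0.23 (SE 0.44, and -0.68 with edgeR), 0.29 (SE 0.40) and -0.60 (SE 0.32) in the authors' deposited tables. Lincpint stood at 1.75 (SE 1.22, adjusted p = 0.208) at 4 h and Dnm3os at 1.29 (SE 1.42, adjusted p = 0.443) in the authors' deposited table, with errors too wide to tell a change from none. The processed host RNA need not follow the level of the mature microRNA, which was not measured.

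Growth and DNA damage RNAs included Pvt1 and Trp53cor1. Of 6 tested members of this list, 0 were higher and 3 lower at 4 h, and 0 and 2 at 24 h in the authors' deposited tables, with the same counts at an unadjusted p under 0.05 and 0 and 5, and 0 and 4, with edgeR. At 3 d 1 of 5 was higher and 0 lower, also at an unadjusted p, and edgeR gave 1 and 1, in the authors' deposited table. The list's median was -1.13, -0.42 and 0.12 at the 3 times in the authors' deposited tables. Pvt1 (chromosome 15, 62037986 to 62378096, plus strand), an RNA near Myc that is known to be amplified with it in tumours, was lower at 4 h (-1.84, SE 0.33, adjusted p = 4.95e-08) and 24 h (-0.54, SE 0.22) and higher at 3 d (0.64, SE 0.14, adjusted p = 1.37e-05) in the authors' deposited tables. Myc stood at 1.47 at 4 h, -0.22 at 24 h and 0.26 at 3 d in the authors' deposited tables, called higher at 4 h and 3 d. Trp53cor1, lincRNA-p21, which is induced by p53 and lies near Cdkn1a, was lower at 4 h (-1.20, SE 0.23, adjusted p = 2.73e-07) and not called at 24 h (-0.30) or 3 d (0.12) in the authors' deposited tables. Cdkn1a, the gene of a cell cycle inhibitor, 11797 bases away, was higher at 4 h, at 3.85 in the authors' deposited table. Crnde was called at no time with DESeq2, with -1.06 (SE 1.07), -1.95 (SE 1.01) and -0.64 (SE 0.48) in the authors' deposited tables.

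A list of lncRNAs studied in immune cells, which does not hold AW112010 or Carlr, had 9 members, of which 7 were tested. At 4 h 2 were higher and 4 lower, at 24 h 1 and 4, and at 3 d 2 and 2 in the authors' deposited tables. With edgeR the counts were 1 and 6, 1 and 4, and 2 and 3 in the authors' deposited tables. Their median was -1.08, -0.54 and 0.01 in the authors' deposited tables. The tested members were Ptgs2os2, Malat1, Neat1, Pvt1, Dnmt3aos, Hotairm1 and Ppp1r3fos. Ppp1r3fos is Flicr, an RNA that modifies Foxp3 expression in regulatory T cells and shares 23.8% of its exonic bases with Foxp3 on the same strand. It was called at no time with DESeq2 (-1.08, SE 1.09, at 4 h) in the authors' deposited tables. Hotairm1, an RNA of the HoxA cluster known from human myeloid cells, was lower at 4 h (-1.35, SE 0.55, adjusted p = 0.0234) in the authors' deposited table. It was not called later with DESeq2, although edgeR called it lower at 3 d (-0.50, edgeR adjusted p = 0.043).

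Among developmental RNAs 5 of 6 members were tested, with 1 higher and 2 lower at 4 h, 0 and 2 at 24 h, and 0 and 1 at 3 d in the authors' deposited tables. With edgeR the counts were 1 and 4, 0 and 4, and 0 and 3 in the authors' deposited tables, and with an unadjusted DESeq2 p under 0.05 they were 1 and 2, 0 and 2, and 0 and 2. Their median was -1.35, -0.22 and -0.32 at the 3 times in the authors' deposited tables. The 1 higher was Zeb2os. Hoxaas3, an antisense RNA of the HoxA cluster, was lower at 4 h (-2.38, SE 1.06, adjusted p = 0.0409), and Bvht, known as Braveheart from the heart lineage, was lower at 24 h (-0.51, SE 0.23, adjusted p = 0.0438) in the authors' deposited tables. Dlx1as was called at no time with DESeq2, at -1.89 (SE 1.10) at 4 h in the authors' deposited table. Its partner Dlx1, a homeobox gene, was called higher at 4 h there and listed at 0 in controls.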

How the data were processed

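RNA-seq was run on polyadenylated RNA of 12 libraries, 3 per group. Per the submitters' processing notes, the authors used bcl2fastq, TopHat2, HTSeq, DESeq2, edgeR and DESeq with mm10. Their versions, the strand setting of the counting and the annotation release are not given in the sources used here.

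The authors deposited 3 tables of comparisons. Per the file headers, the authors gave in each log2 fold changes from DESeq2 and edgeR, an unscaled log2 ratio, p-values raw and adjusted, and a baySeq score. The deposited log2 values run control over MPLA, as read from Il6, Tnf and Cxcl10, and were turned to MPLA over control. Where the authors deposited NA for an adjusted p-value, the gene counts as not tested. The planned count test could not be run, since no count per library was used here, so the authors' own DESeq2 columns give the calls. The SE is the absolute log2 value divided by the normal quantile of its deposited p-value, which assumes a Wald test. The depth per sample is unknown.

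Positions came from GENCODE M21 (GRCm38, the assembly of mm10) and promoters from RefSeq GRCm38.p6. Python 3.11.15, pandas 2.3.3, scipy 1.17.1 and matplotlib 3.10.9 were used. The genes named were, per comparison, the 10 largest called increases and the 10 largest called decreases with reads in both groups, called members listed at 0 in 1 group, the tested members of the lists and their partners. Other genes were named after their values were seen. The members and lists were chosen with earlier results of these data known. Scripts were tested on simulated data.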

Additional observations from a re-analysis of the deposited data

How the results depend on the processing

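No paired analysis was possible because the tables hold no value per library, and leaving out each replicate in turn was not run for the same reason. With the edgeR columns the members called lower were 91 at 4 h (53.2%), 58 at 24 h (33.9%) and 34 at 3 d (19.9%). Of all rows 50.1%, 41.8% and 27.7% were lower with edgeR. The members' edgeR median at 4 h was -1.63. With the baySeq error rate the members called lower were 60, 40 and 2. At 3 d, 2 members were lower by all 3 tools, and 8 at an adjusted p under 0.01. Asking for a change of at least 2-fold left 12 higher and 11 lower at 24 h, and 5 higher and 5 lower at 3 d. Leaving out members with exons opposite another gene left 4, 7 and 9 higher and 17, 9 and 6 lower at 4 h, 24 h and 3 d. With edgeR the sign of called members turned round for Brip1os (-0.030), Malat1 (-0.62) and Rab10os (-0.42) at 4 h and Adap2os (-0.01) at 24 h. Among members not called, signs turned for several, such as Mir17hg (-0.68), Snhg6 (-0.84), Gt(ROSA)26Sor (-0.51) and Appbp2os (-0.19) at 4 h and Zeb2os (-0.35) at 24 h, and the call of Anxa11os at 4 h was lost. Keeping only members with reads in both groups left 12 higher and 29 lower at 4 h and 19 and 19 at 24 h. Apart from edgeR, the shares of all rows under these settings are not given here. The counts therefore do not show what is particular to the members. The settings that kept the patterns of the rule alone, or left out members that GENCODE M21 lists as protein-coding, were chosen after seeing the data.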

Other observations

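Another 37 named lincRNA or antisense rows were present in only 1 or 2 of the authors' deposited tables and were not described. Under the names of GENCODE M21, 7 of the 171 members are listed as protein-coding: Fam169b, Fcor, Inafm2, Kantr, Platr17, Platr25 and Toporsos. Yam1 has the name Gm42418 there, a locus that overlaps ribosomal RNA repeats, and stood at -0.61, -0.57 and 0.17 at 4 h, 24 h and 3 d in the authors' deposited tables.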
